A study of Homo sapiens with 12 samples.

Results

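NF-kB is a family of transcription factors, and the genes described here include its 5 Rel subunits (NFKB1, NFKB2, REL, RELA and RELB). The others are 5 of the pathway's own targets that are grouped as its inhibitors (NFKBIA, NFKBIE, NFKBIZ, TNFAIP3 and BIRC3). The word inhibitors is a group label, and what each gene does to the pathway in these cells was not tested. These 10 genes were taken by symbol from a table of raw read counts for 20771 genes, and their counts were read in all 12 libraries. Each of the 10 had enough counts to be tested, among 16515 genes tested in all. The libraries hold polyA RNA from 2 derivatives of Ewing sarcoma lines, EW8-RRM1-KO and TC71-RRM1-KO. Both lines grew in DMEM with 10% FBS. In both, the endogenous RRM1 gene, which encodes the large subunit of ribonucleotide reductase, was targeted with Cas9, and a codon-optimized RRM1 transgene was expressed only while doxycycline was in the medium. The knockout lines were cloned from single cells, and the labels do not name the clones behind the libraries.

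Each line gave 3 libraries labelled 0 h, taken with doxycycline in the medium, and 3 labelled 48 h, taken after 48 hours without it. Every library labelled 48 h therefore lacked doxycycline, and the effects of the drug's removal and of a loss of RRM1, whose transgene needs the drug, cannot be told apart in these data. The labels do not say that libraries of a group came from separate cultures, so the p-values measure the spread between libraries, which may be technical. Counts summed to between 18468485 and 35698991 per library. Libraries of a group differed by a chi-square per gene of 1.98 to 9.16, with the 2 highest values (7.57 and 9.16) for TC71 library 3 labelled 48 h against its partners. Without it, the members that rose and fell in TC71 still numbered 5 and 1. RRM1 itself gave no check of the labels. The transgene is codon-optimized, and how far its reads entered the counts on the gene was not tested. RRM1 counts rose in the libraries labelled 48 h, by 2.88 on the log2 scale for EW8 and 0.65 for TC71 (edgeR's quasi-likelihood test, adjusted p = 3.37e-27 and 2.91e-09). These counts show no fall of RRM1, and the times are given throughout as labelled.

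Rel subunits act as dimers that are held in the cytoplasm by IkB proteins such as NFKBIA and NFKBIE. In the canonical pathway the IKK complex marks these IkB proteins for destruction, and dimers that contain RELA or REL enter the nucleus, where NFKBIA and TNFAIP3 are among the genes they switch on and so limit the signal. In the non-canonical pathway the kinase MAP3K14 (NIK) drives the processing of the long NFKB2 precursor, whose product pairs with RELB. NFKB1 is made as a precursor too and pairs mostly with RELA.

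The promoters of these genes are known for kappaB elements, the short DNA motif that Rel dimers bind, and 3 of them are printed to show where such letters lie before the inhibitors whose counts moved in both lines. Sequences are from RefSeq on build GRCh38.p14, with matches to the kappaB consensus on either strand in capitals. They end before the gene's own exons and run 5′ to 3′ along the gene's strand. NFKBIA lies on chr14:35404750-35404999 (- strand), NFKBIZ on chr3:101827740-101827989 (+ strand) and TNFAIP3 on chr6:137867009-137867213 (+ strand).
NFKBIA: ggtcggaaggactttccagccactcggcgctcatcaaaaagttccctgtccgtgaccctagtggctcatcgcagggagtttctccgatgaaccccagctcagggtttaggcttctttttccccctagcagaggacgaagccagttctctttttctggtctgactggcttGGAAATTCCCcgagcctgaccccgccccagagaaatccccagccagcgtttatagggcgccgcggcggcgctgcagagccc
NFKBIZ: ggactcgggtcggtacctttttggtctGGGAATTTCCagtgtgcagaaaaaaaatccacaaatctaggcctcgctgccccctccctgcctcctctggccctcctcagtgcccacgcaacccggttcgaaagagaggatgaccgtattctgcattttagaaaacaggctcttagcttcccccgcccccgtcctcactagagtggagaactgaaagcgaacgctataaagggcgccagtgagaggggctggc
TNFAIP3: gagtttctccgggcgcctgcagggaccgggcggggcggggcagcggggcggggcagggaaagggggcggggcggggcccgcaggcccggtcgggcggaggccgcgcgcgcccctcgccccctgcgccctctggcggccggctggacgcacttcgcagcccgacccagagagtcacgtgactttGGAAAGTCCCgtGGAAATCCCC

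Promoter entries were found for 8 of the 10 genes, as 13 windows of 250 bases before an annotated start, and RELB and NFKBIE had no entry. The kappaB consensus occurred in 9 of these windows, in 7 of the 8 genes, with RELA as the exception. Of all 35116 windows of the same length, 5.21% held it. In NFKBIA the match began 81 bases before the start, in TNFAIP3 the pair of matches began 67 and 55 bases before the RefSeq start (22 and 10 before the gene start in GENCODE, which lies further upstream), and in NFKBIZ the printed match began 223 bases before it. Among the others, NFKB2 had 2 matches in each of 2 windows, BIRC3 had 2 in its window, and NFKB1 and REL had 1 each. The AP-1 motif TGANTCA, read on both strands, was in 0 of the 13 windows and in 6.57% of all windows. A match describes the letters only, and no match says nothing of a factor.

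The subunits and inhibitors differed widely in level (counts scaled to library size, CPM, divided by the length of the canonical transcript in kb). At 0 h in EW8 the most abundant were NFKBIA with 41.7 ± 1.26 CPM per kb and RELA with 37.0 ± 2.08 (SD, n = 3), followed by NFKB1 with 7.37 ± 0.297. NFKBIE (2.63), TNFAIP3 (2.29), NFKB2 (2.04) and REL (1.06) followed in mean CPM per kb, and of these the libraries of TNFAIP3 and NFKB2 overlapped. NFKBIZ (0.352), RELB (0.324) and BIRC3 (0.174) were lowest, and NFKBIZ and RELB did not differ beyond their spread. In TC71 at 0 h RELA (37.4 ± 2.35 CPM per kb) stood above NFKBIA (31.1 ± 1.96), and NFKB2 (3.12), NFKB1 (2.73), TNFAIP3 (2.52) and NFKBIE (2.13) lay close together, with the libraries of NFKB1 overlapping those of TNFAIP3 and of NFKBIE. BIRC3 was again lowest, at 0.0853 CPM per kb, from 8 to 17 counts per library. In the libraries labelled 48 h, TNFAIP3 was the member with the third highest level in both lines, at 14.7 ± 1.21 CPM per kb in EW8 and 7.51 ± 0.367 in TC71. RELB, among the lowest members in EW8 at 0 h, stood at 3.09 ± 0.241 CPM per kb in that line at 48 h, above REL (2.47 ± 0.161).

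**Figure D1:**
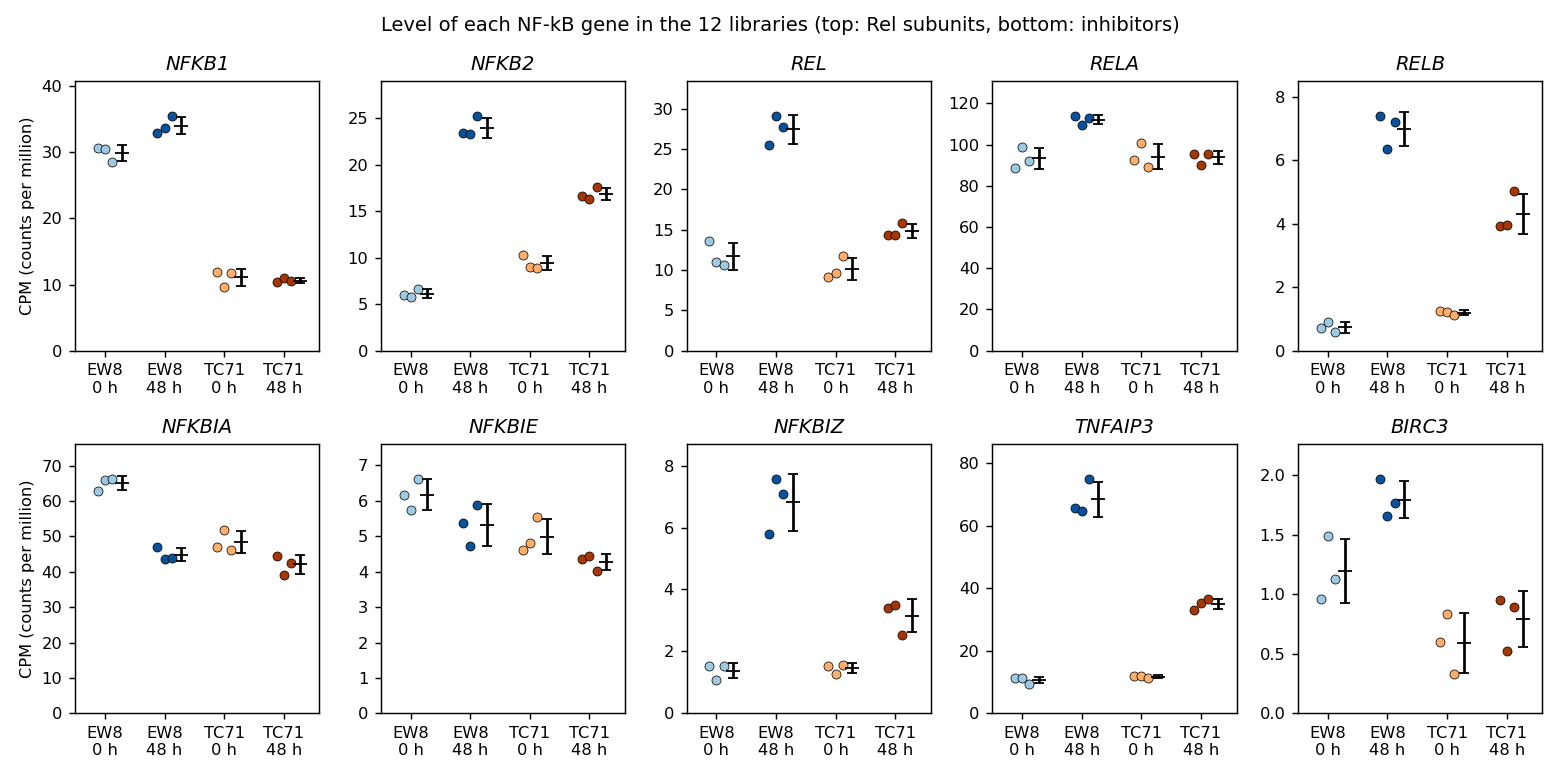
Level of each gene (CPM, linear axis, a panel for each gene) in the 4 groups. Dots are libraries and bars the mean ± SD of 3. RELA is highest in every group, and RELB, NFKBIZ and TNFAIP3 lie higher at 48 h than at 0 h in both lines.

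In EW8, 8 of the 10 genes rose at 48 h against 0 h and 1 fell at an adjusted p below 0.05, where 37.0% of all genes tested rose and 31.6% fell. Groups did not overlap for 9 of the 10, against 71.1% of all genes. By more than 2-fold, 5 rose (NFKB2, REL, RELB, NFKBIZ and TNFAIP3) and 0 fell, against 13.9% and 3.35% of all genes. In TC71, 5 rose and 1 fell, where 22.9% of all genes rose and 19.2% fell, and groups did not overlap for 7, against 49.6%. There 3 rose by more than 2-fold (RELB, NFKBIZ and TNFAIP3), against 3.26% of all genes, and 0 fell (0.854% of all). The median log2 fold change of the 10 was 0.92 in EW8 and 0.51 in TC71, beside 0.03 and -0.00 over all genes tested. The same 5 genes (NFKB2, REL, RELB, NFKBIZ and TNFAIP3) rose in both lines, as did 17.6% of all genes, and NFKBIA alone fell in both, as did 14.3%. In these bulk libraries, fewer cells that express a gene and less RNA per cell cannot be told apart. Fold changes are on the log2 scale throughout, as 48 h against 0 h, with the standard error of the fit.

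**Figure D2:**
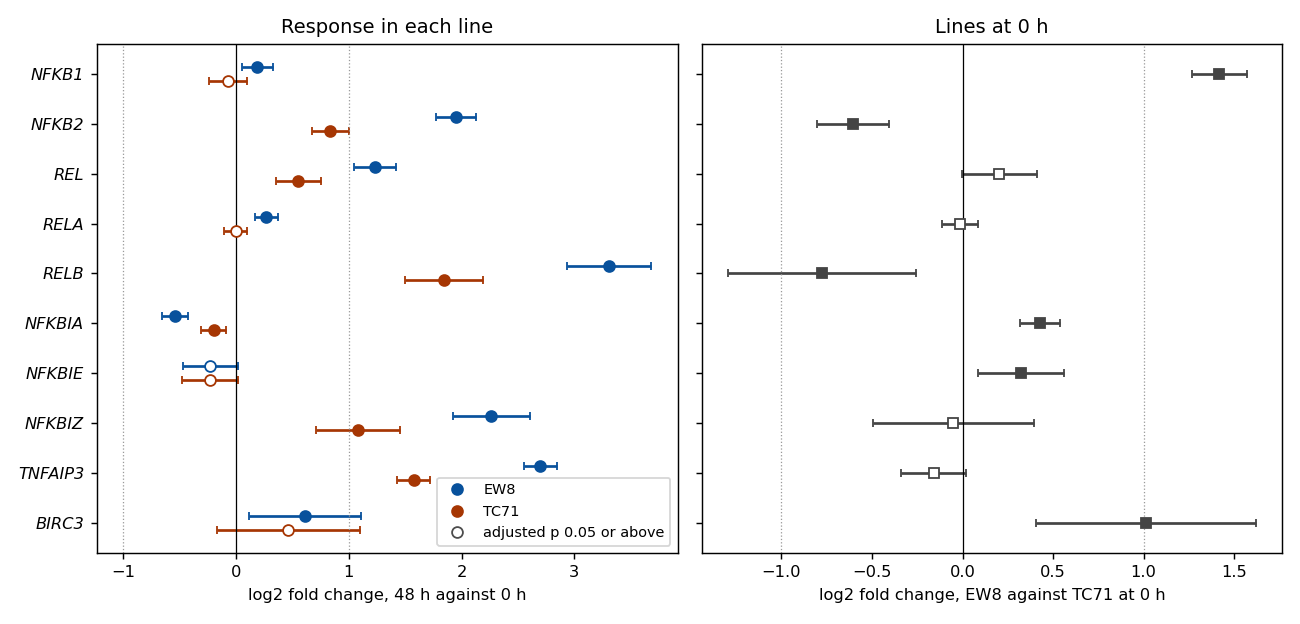
Log2 fold change with its 95% interval for each gene, 48 h against 0 h in each line (left) and EW8 against TC71 at 0 h (right); filled symbols have an adjusted p below 0.05 and dotted lines mark 2-fold. RELB has the largest rise of the 10 in each line (3.31 and 1.85), and NFKBIA lies below 0 in both.

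RELB, the subunit that pairs with processed NFKB2, had the largest rise of the 10. Its EW8 libraries had 0.701, 0.917 and 0.580 CPM at 0 h and 7.39, 6.37 and 7.19 CPM at 48 h. All libraries labelled 48 h were above all labelled 0 h, and the rise was 3.31 ± 0.184 (SE), or 9.90-fold (adjusted p = 2.23e-17). At 0 h these levels rest on 16, 16 and 19 counts. In TC71 it had 1.27, 1.23 and 1.12 CPM at 0 h and 3.93, 3.95 and 5.04 CPM at 48 h, again without overlap. The rise there was 1.85 ± 0.171 (3.59-fold, adjusted p = 9.75e-11). RELB lies on chr19:45001461-45038192 (hg38, + strand), and its exons overlap those of no other annotated gene.

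NFKB2 encodes the precursor of RELB's partner and rose in both lines. In EW8 it had 5.96, 5.79 and 6.68 CPM at 0 h and 23.4, 23.3 and 25.2 CPM at 48 h. The groups were far apart, with a rise of 1.95 ± 0.0875 (3.86-fold, adjusted p = 6.39e-20). The TC71 libraries had 10.3, 9.02 and 8.90 CPM at 0 h and 16.7, 16.3 and 17.6 CPM at 48 h. Its TC71 groups did not overlap either, and the rise of 0.84 ± 0.0820 was below 2-fold (1.79-fold, adjusted p = 3.49e-10).

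REL (c-Rel), a subunit best known from lymphocytes, rose too. Its EW8 libraries had 13.7, 10.9 and 10.6 CPM at 0 h and 25.5, 29.1 and 27.7 CPM at 48 h. These groups did not overlap, and the rise was 1.23 ± 0.0916 (2.35-fold, adjusted p = 1.74e-13). REL levels in TC71 were 9.09, 9.66 and 11.7 CPM at 0 h and 14.4, 14.3 and 15.9 CPM at 48 h, a rise of 0.55 ± 0.0965 (adjusted p = 2.32e-05) without overlap.

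RELA (p65), the main activating subunit of the canonical pathway, moved little. In EW8 it had 88.7, 99.0 and 92.0 CPM at 0 h and 114, 110 and 113 CPM at 48 h. The libraries labelled 48 h were all higher, and the rise was 0.27 ± 0.0494 (adjusted p = 1.3e-05). In TC71, RELA had 92.7, 101 and 89.0 CPM at 0 h and 95.6, 90.2 and 95.5 CPM at 48 h, and these overlapped. Its log2 fold change there was -0.00 with a 95% interval from -0.10 to 0.10 (adjusted p = 0.964), and the sign turned with the scaling, at 0.05 with total counts alone.

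NFKB1, whose processed product is RELA's usual partner, had 30.7, 30.5 and 28.5 CPM at 0 h and 32.9, 33.6 and 35.4 CPM at 48 h in EW8. The groups did not overlap, yet the rise of 0.19 ± 0.0666 (adjusted p = 0.0119) was not past 0.05 without the third library labelled 0 h (0.12, adjusted p = 0.174) or without the third labelled 48 h (0.16, adjusted p = 0.0714). NFKB1 levels in TC71 were 11.9, 9.56 and 11.7 CPM at 0 h and 10.3, 11 and 10.5 CPM at 48 h. These overlapped, with a log2 fold change of -0.07 and a 95% interval from -0.24 to 0.10 (adjusted p = 0.527).

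Of the inhibitors, TNFAIP3 (A20), a ubiquitin-editing enzyme that switches off signalling from TNF receptors to IKK, had the largest rise. It had 11.3, 11.2 and 9.52 CPM in the EW8 libraries at 0 h and 65.7, 64.8 and 75.0 CPM at 48 h. Every library labelled 48 h was far above every library labelled 0 h, and the rise was 2.70 ± 0.0733 (6.49-fold, adjusted p = 4.03e-26). In TC71, TNFAIP3 had 12.1, 11.8 and 11.4 CPM at 0 h and 33.1, 35.5 and 36.5 CPM at 48 h. These groups did not overlap, and the rise was 1.57 ± 0.0739 (2.98-fold, adjusted p = 2.95e-18). TNFAIP3 (chr6:137867214-137883314, + strand) overlaps exons of WAKMAR2 on the other strand. The counts of WAKMAR2 ran from 6 to 18 at 0 h and from 32 to 51 at 48 h in EW8, where TNFAIP3 had 1236 to 1533 counts at 48 h.

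NFKBIZ (IkB-zeta) is an atypical IkB that acts in the nucleus and is itself an early target of the pathway. It had 1.53, 1.09 and 1.53 CPM in EW8 at 0 h and 5.80, 7.57 and 7.10 CPM at 48 h. Its groups did not overlap, and the rise was 2.26 ± 0.168 (4.81-fold, adjusted p = 4.76e-14). NFKBIZ levels in TC71 were 1.53, 1.27 and 1.57 CPM at 0 h and 3.40, 3.51 and 2.54 CPM at 48 h. The rise was 1.08 ± 0.182 (2.12-fold, adjusted p = 1.08e-05), close to 2-fold, and lay between 0.99, without TC71 library 2 labelled 48 h, and 1.23 when each library was left out in turn. NFKBIZ shares exon sequence with NXPE3 on the same strand, and NXPE3 fell in both lines (by 0.65 in EW8 and 0.22 in TC71).

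NFKBIA (IkB-alpha), the IkB that canonical signalling degrades and then induces, was the member that fell. In EW8 it had 62.8, 66.1 and 66.3 CPM at 0 h and 47.0, 43.7 and 43.9 CPM at 48 h. The libraries labelled 48 h were all lower, and the log2 fold change was -0.54 ± 0.0568 (adjusted p = 2.9e-10). NFKBIA levels in TC71 were 47.1, 51.9 and 46.3 CPM at 0 h and 44.5, 39.2 and 42.6 CPM at 48 h. The groups did not overlap there either, and the log2 fold change was -0.20 ± 0.0564 (adjusted p = 0.0046). Its fall stands beside the rise of TNFAIP3 and NFKBIZ in the same libraries.

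NFKBIE (IkB-epsilon) binds RELA and REL dimers. It had 6.18, 5.73 and 6.62 CPM in EW8 at 0 h and 5.37, 4.71 and 5.87 CPM at 48 h, and these overlapped. The log2 fold change was -0.23 ± 0.120 (95% interval -0.47 to 0.02, adjusted p = 0.0912). This was past 0.05 with upper-quartile scaling (adjusted p = 0.0485), with EW8 fitted alone (adjusted p = 0.0488) and without the second EW8 library labelled 0 h (adjusted p = 0.0379). NFKBIE levels in TC71 were 4.62, 4.81 and 5.54 CPM at 0 h and 4.35, 4.44 and 4.02 CPM at 48 h. There the libraries labelled 48 h were all lower, and the log2 fold change of -0.23 ± 0.122 was not past the threshold (adjusted p = 0.134).

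BIRC3 (cIAP2), a ubiquitin ligase that acts with TRAF proteins, was the least abundant of the 10 per length. It had 0.964, 1.49 and 1.13 CPM in EW8 at 0 h and 1.97, 1.65 and 1.76 CPM at 48 h. These did not overlap, and the rise was 0.62 ± 0.244 (adjusted p = 0.0257). With 22 to 37 counts per library, the call was lost with DESeq2 (adjusted p = 0.101) and without EW8 library 1 or 3 labelled 0 h (adjusted p = 0.130 and 0.102) or library 1 or 3 labelled 48 h (adjusted p = 0.0857 and 0.05001). In TC71, BIRC3 had 0.596, 0.834 and 0.331 CPM at 0 h and 0.954, 0.522 and 0.897 CPM at 48 h. These overlapped, and at 8 to 29 counts the log2 fold change of 0.46 had a 95% interval from -0.17 to 1.1 (adjusted p = 0.240).

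The makeup of each set followed from these changes and is given as the share of the summed CPM per kb. RELA made up 77.4% ± 1.20 (SD, n = 3) of the 5 subunits in EW8 at 0 h and 67.0% ± 0.750 at 48 h. In TC71 its share was 83.6% ± 1.65 at 0 h and 76.5% ± 0.780 at 48 h. NFKB2 stood at 4.27% at 0 h and 12% at 48 h in EW8, and at 6.99% and 11.5% in TC71. RELB had 0.675% and 4.65% in EW8 and 1.19% and 3.91% in TC71. The sum over the subunits was 47.8 ± 2.04 CPM per kb at 0 h and 66.4 ± 1.33 at 48 h in EW8, and 44.7 ± 1.99 and 48.7 ± 1.55 in TC71. The libraries did not overlap in either line, narrowly so in TC71 (at most 46.7 at 0 h and at least 47.0 at 48 h).

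Among the inhibitors, NFKBIA made up 88.4% ± 0.542 of the summed CPM per kb in EW8 at 0 h and 60.3% ± 2.42 at 48 h. TNFAIP3 had 4.86% ± 0.536 and 30.8% ± 1.97. In TC71, NFKBIA had 85.8% ± 0.965 and 72.5% ± 1.77, and TNFAIP3 6.98% ± 0.378 and 20.2% ± 1.55. Per length, the inhibitors' summed level was 47.2 ± 1.14 CPM per kb at 0 h and 47.7 ± 1.44 at 48 h in EW8, and 36.2 ± 1.88 and 37.3 ± 1.5 in TC71, differences within the spread between libraries. This depends on the division by length, since NFKBIA has the shortest transcript of the 10. Without it, the sum of the same 5 genes was 82.8 to 85.6 CPM at 0 h and 122 to 134 CPM at 48 h in EW8, and 65.1 to 70.7 and 83.1 to 86.5 CPM in TC71, higher at 48 h without overlap in both lines. These shares count transcripts and not proteins.

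**Figure D3:**
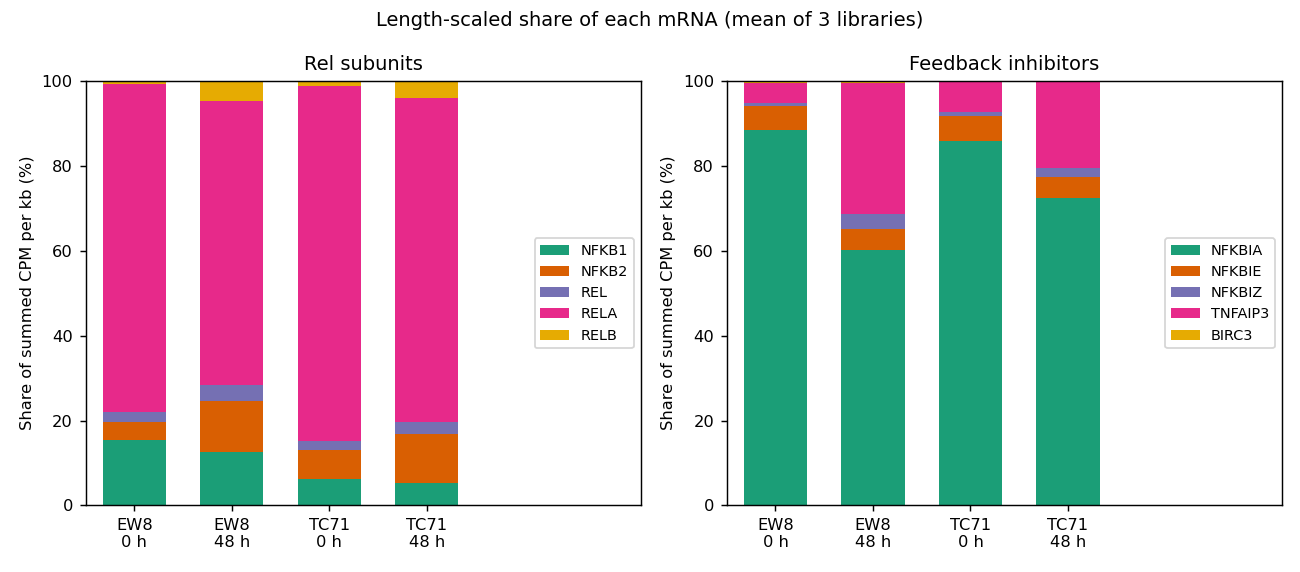
Mean share (percent) of each gene in the summed CPM per kb of the 5 subunits and of the 5 inhibitors, in the 4 groups of 3 libraries. From 0 h to 48 h the RELA share goes from 77.4% to 67.0% in EW8, and the TNFAIP3 share from 4.86% to 30.8%.

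Most of the genes responded more in EW8 than in TC71. The difference of the log2 fold changes (EW8 minus TC71), which uses the same 12 libraries as the comparisons within lines, was above 0 at an adjusted p below 0.05 for 7 of the 10 genes and below 0 for NFKBIA, where 25.7% of all genes were above 0 and 22.4% below. It was over 1, that is over 2-fold, for 4 (7.28% of all genes). RELB had a difference of 1.46 (SE 0.284, adjusted p = 5.87e-05) and NFKBIZ one of 1.18 (SE 0.262, adjusted p = 0.000313). TNFAIP3 differed by 1.13 (SE 0.107, adjusted p = 1.53e-10) and NFKB2 by 1.11 (SE 0.122, adjusted p = 3.18e-09). These 4 thus rose more than 2-fold further in EW8. REL (0.68, adjusted p = 8.93e-05) and RELA (0.27, adjusted p = 0.00148) differed by less. For NFKBIA the difference was -0.34 (adjusted p = 0.000656), since it fell further in EW8.

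The difference of 0.26 for NFKB1 (adjusted p = 0.0433) lost its call under 16 of 21 other settings, with an adjusted p of 0.101 for DESeq2's Wald test and 0.0533 with DESeq2's size factors. When each library was left out in turn it lay between 0.20 and 0.35. For NFKBIE the difference was -0.00, with a 95% interval from -0.37 to 0.37, and its sign turned to 0.07 with total counts alone. For BIRC3 it was 0.15, with an interval from -0.68 to 0.98 (adjusted p = 0.788). The intervals of these last 2 genes include differences as large as that of NFKBIA.

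At 0 h, with doxycycline present, the members' count was near that of genes in general. EW8 was higher than TC71 for 4 of the 10 genes (NFKB1, NFKBIA, NFKBIE and BIRC3) and lower for 2 (NFKB2 and RELB), where 32.8% of all genes were higher and 32.9% lower. This comparison uses the same 0 h libraries as the others. NFKB1 had the largest difference, 29.9 ± 1.20 CPM in EW8 against 11.1 ± 1.30 in TC71 (log2 difference 1.42, SE 0.0752, adjusted p = 7.11e-18). BIRC3 was higher by 1.01 (adjusted p = 0.00335), and these were the 2 genes over 2-fold (4.77% of all genes). NFKBIA was higher by 0.43 (adjusted p = 2.68e-08). NFKBIE was higher by 0.32 (adjusted p = 0.0164), which was not past 0.05 with total counts alone (adjusted p = 0.160), upper-quartile factors (adjusted p = 0.0706) or DESeq2's Wald test (adjusted p = 0.0520), or without EW8 library 3 (adjusted p = 0.0944) or TC71 library 1 or 2 (adjusted p = 0.0906 and 0.0557). BIRC3 was under 2-fold without EW8 library 2 or TC71 library 3, at 0.73 to 1.29 over the libraries left out.

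In the other direction, NFKB2 was lower in EW8, with a log2 difference of -0.60 (SE 0.0973, adjusted p = 1.62e-06). RELB was lower too (log2 difference -0.78, adjusted p = 0.00791), a call that was lost without EW8 library 3 (adjusted p = 0.0811). RELA, NFKBIZ, REL and TNFAIP3 were not past the threshold at 0 h. Their log2 differences were -0.01 (95% interval -0.11 to 0.09), -0.05 (-0.50 to 0.39), 0.20 (-0.00 to 0.41) and -0.16 (-0.34 to 0.02). REL was called higher in EW8 without library 3 of either line (adjusted p = 0.0255 for EW8 and 0.00997 for TC71). RELA and TNFAIP3 were called lower in EW8 with total counts alone (adjusted p = 0.0101 and 0.00488), and TNFAIP3 with upper-quartile factors too (adjusted p = 0.0194). The 0 h libraries of TNFAIP3 did not overlap between the lines. NFKB2 and RELB, which were lower in EW8 at 0 h, were the more abundant in EW8 at 48 h, at 24.0 ± 1.09 against 16.9 ± 0.634 CPM for NFKB2 and 6.98 ± 0.543 against 4.31 ± 0.634 CPM for RELB.

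The rest of the pathway was read from 7 lists of other IkB genes (with IBTK), kinases with their partners, adaptors, ligands, receptors, negative regulators and well known targets. Over these lists together, EW8 had 49 genes up and 19 down, and TC71 38 up and 5 down (adjusted p below 0.05), of 84 genes tested. That is 58.3% up and 22.6% down in EW8 and 45.2% up and 5.95% down in TC71, beside 37.0% and 31.6% of all genes in EW8 and 22.9% and 19.2% in TC71, shares against which the counts of each list below can be read too. With 10 counts required in every library, EW8 had 34 of the pathway genes up and 20 down, and with total counts alone 55 up and 9 down. TC71 had 28 to 44 up and 3 to 6 down over the alternatives. The first list held 5 genes, all tested, of which 4 rose in EW8 and 3 in TC71, with a median log2 fold change of 0.85 and 0.40. One of the 5, IBTK, is no IkB gene but encodes an inhibitor of Bruton's tyrosine kinase. It rose by 0.39 in EW8 (adjusted p = 7.42e-10) and stood at -0.04 in TC71 (adjusted p = 0.519), so that 3 of the other 4 genes rose in each line. BCL3, a nuclear IkB that partners the NFKB1 and NFKB2 products, rose by 1.13 in EW8 and 0.40 in TC71. NFKBIB (IkB-beta) rose by 0.99 and 0.47, and NFKBIL1 by 0.85 and 0.44. NFKBID stood at 0.30 and 0.24 (adjusted p = 0.0611 and 0.118). Of these 4 and the 3 IkB genes among the members, NFKBIA alone was past the threshold as a fall, with NFKBIE in EW8 past it only under the settings given above.

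Of 14 measured genes of the IKK complex, the kinases upstream of it and their TAB partners, EW8 had 8 up and 4 down (median 0.17) and TC71 5 up and 1 down (median 0.11). MAP3K14 (NIK), the kinase of the non-canonical pathway, rose by 1.75 ± 0.124 in EW8 and 0.80 ± 0.121 in TC71 (adjusted p = 1.47e-14 and 1.83e-06), as RELB and NFKB2 did. IRAK2, a kinase below interleukin-1 and Toll-like receptors, rose by 2.51 in EW8, from 3 to 10 counts at 0 h to 26 to 44 at 48 h, and in TC71 it stood at 0.57 (adjusted p = 0.165). RIPK2, which signals from NOD receptors, rose by 1.29 and 0.38. TAB1, a partner of the kinase MAP3K7, fell by 0.40 and 0.13, and the TC71 call was lost under 11 of 22 other settings.

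Adaptors were split, with 7 of 16 tested up and 4 down in EW8 (median 0.04) and 7 up and 1 down in TC71 (median 0.13). TRAF3, which together with TRAF2 and BIRC2 keeps MAP3K14 protein low, fell by 0.81 and 0.22 (adjusted p = 5.02e-17 for EW8 and 0.000231 for TC71). BIRC2 rose in both lines, by 0.47 and 0.24 (adjusted p = 3.55e-09 and 0.000968). TRAF2 fell by 0.51 in EW8 (adjusted p = 1.08e-05), while in TC71 it rose by 0.21 (adjusted p = 0.0369), a value chosen for mention after it was seen, as was that of BIRC2 in TC71. TRAF1, itself a known target, rose by 1.65 and 0.69, and BCL10, an adaptor upstream of IKK, by 0.69 and 0.38.

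Of 14 receptors, 8 were up and 3 down in EW8 (median 0.60), and 6 up and 2 down in TC71 (median 0.38). With 10 counts required in every library, 5 were up in EW8. TNFRSF12A (Fn14), the receptor for TWEAK, had the largest rise of the list. Its EW8 counts were 139, 102 and 190 for the libraries labelled 0 h, against 1622, 1614 and 1750 for those labelled 48 h. The groups were far apart, at 3.83 (adjusted p = 4.3e-30), and TC71 rose by 2.36 (adjusted p = 1.06e-20). FAS, a death receptor, rose by 1.80 and 1.13. TNFRSF10A, a TRAIL receptor, fell by 0.70 and 0.20, and LTBR, the lymphotoxin receptor, by 0.39 and 0.19. TNFRSF10B, the other TRAIL receptor of the list, was named after its values were seen. It rose by 0.57 in EW8 (adjusted p = 6.99e-15) and stood at 0.03 in TC71 (adjusted p = 0.62). The count of receptors that fell in TC71 was 1 in place of 2 under 6 of 22 other settings, among them total counts alone and DESeq2.

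Ligands were scarce, with 4 of 13 tested, of which 3 rose in EW8 and 2 in TC71. TNFSF13B (BAFF) rose by 0.92 in EW8 and stood at -0.21 in TC71 (adjusted p = 0.553). TNFSF15 rose by 1.33 in TC71 and had 0 to 1 counts per library in EW8. TNFSF14 (LIGHT), named for completeness after its values were seen, rose in both lines from at most 5 counts per library (adjusted p = 0.000722 and 0.0133). The count of ligands that rose in TC71 was lower than 2 under 6 of 22 other settings, among them DESeq2 and TC71 fitted alone, and the EW8 count was 1 in place of 3 with 10 counts required in every library. TNF itself, named here after its values were seen, had EW8 counts of 1, 1 and 3 (0 h) and of 19, 13 and 25 (48 h), a ratio of 14.1 per depth with a 95% counting interval from 5.69 to 45.0. In TC71 it had 3, 3 and 0 counts and then 4, 9 and 3, which is not a resolved difference at this depth (adjusted p = 0.213). Other negative regulators went both ways in EW8, with 7 of 15 up and 4 down (median 0.06), though 0 fell with total counts alone. In TC71, 3 were up and 1 down (median 0.05). TRAFD1 rose by 1.16 and 0.43, SQSTM1 by 0.62 and 0.51, and CYLD, a deubiquitinase that opposes IKK activation, by 0.56 and 0.23.

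Of the well known targets, 16 of 32 were tested, and 12 rose in each line. With 10 counts required in every library, which tests fewer genes, 6 rose in each line. The median of the 16 was 1.41 in EW8 (1.29 with genes at the floor placed at their bound) and 0.73 in TC71. PTGS2, the inducible cyclooxygenase, rose by 4.28 in EW8 and 3.11 in TC71, and IER3 by 3.38 and 2.17. PLAU, the urokinase gene, rose by 5.87 and 3.65, from 2 to 7 counts at 0 h in EW8. CXCL8 (interleukin-8) had EW8 counts of 1, 2 and 2 (0 h) and of 287, 336 and 301 (48 h), a ratio of 228 (95% counting interval 97.4 to 704), and it rose by 3.06 in TC71. Not all targets moved this way: in EW8, 4 fell (1 with total counts alone, 2 with DESeq2), and SOD2 was among them (-0.59, adjusted p = 2.31e-15), while in TC71 SOD2 stood at 0.01 (adjusted p = 0.879). Several of these targets are known targets of AP-1 as well.

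**Figure D4:**
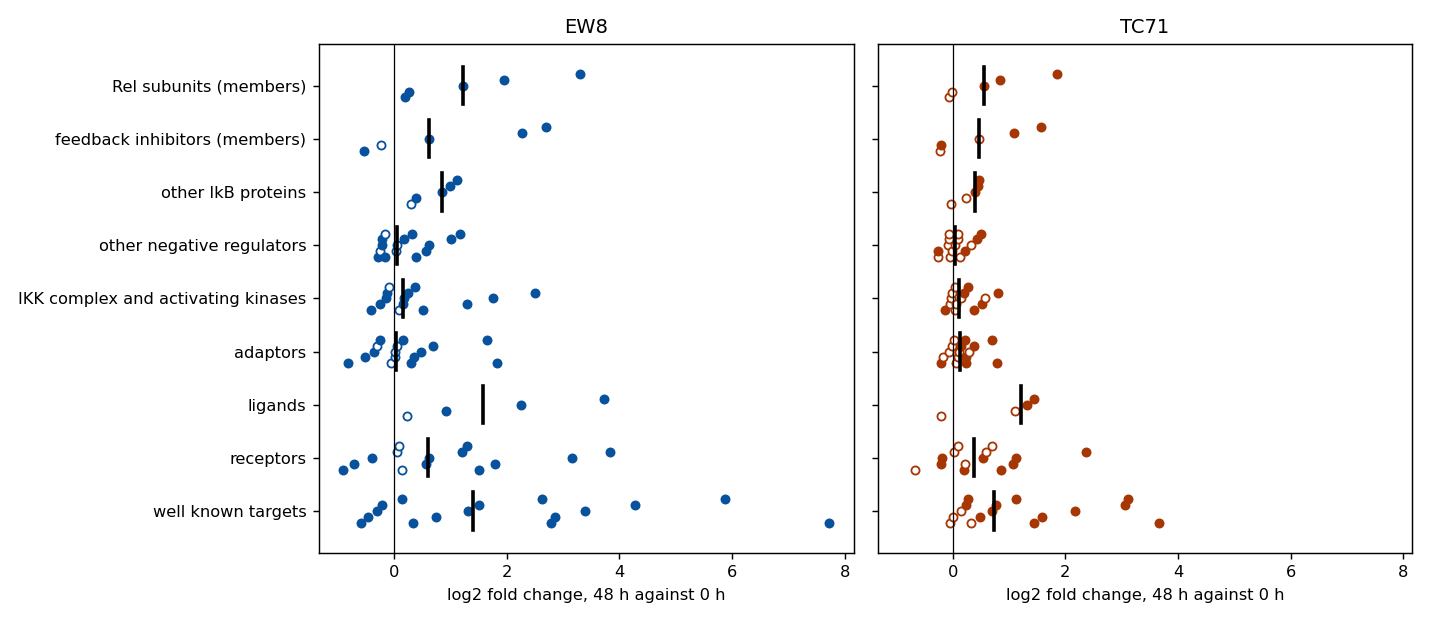
Log2 fold change (48 h against 0 h) of every tested gene in the 2 member sets and the 7 other lists, in EW8 (left) and TC71 (right); filled dots have an adjusted p below 0.05 and black bars are list medians. In EW8 the target list spans from -0.59 to 7.73, with a median of 1.41.

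For the 3 genes that rose by more than 2-fold in both lines, the genes with the most similar pattern over the 12 libraries were found by Pearson correlation of log2 CPM. The libraries fall into 4 groups, so these values describe likeness and carry no p. RELB was closest to CDKN1A (r = 0.996), IER3 (r = 0.994) and ZFP36 (r = 0.993). TNFAIP3 was closest to FN1 (r = 0.997), PPP1R15A (r = 0.994) and TWIST1 (r = 0.992). NFKBIZ was closest to ZNF674 (r = 0.991), PCDH11X (r = 0.989) and PPIL3 (r = 0.989).

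NF-kB genes are active in immune and stromal cells too, and markers of other cell types were read in the same libraries. All 10 Ewing sarcoma markers were expressed, with summed levels of 2979 to 3165 CPM in EW8 and 2825 to 3112 CPM in TC71. They did not move together, with 6 up and 4 down in EW8 (NR0B1 at 0.98, CD99 at -0.45 and BCL11B at -1.11) and 6 up and 3 down in TC71. The defining leukocyte marker PTPRC (CD45) had 0 to 5 counts per library and CD14 1 to 5. Summed over the 5 leukocyte markers in the table, of 8 listed, levels were 11.6 to 12.3 CPM at 0 h and 14.9 to 15.8 at 48 h in EW8, and 5.46 to 6.74 and 9.58 to 11.5 in TC71. CSF1R made up most of the EW8 rise, from 6 to 11 counts at 0 h to 76 to 87 at 48 h. In TC71, CD247 went from 106 to 152 counts up to 211 to 325 (log2 fold change 0.79), and it stood at -0.13 in EW8. ITGAM rose in both lines from at most 6 counts per library. Fibroblast markers (5 of 6 in the table) went from between 168 and 172 CPM to between 239 and 242 in EW8, and from between 100.2 and 104 to between 134 and 142 in TC71. Epithelial markers (3 of 5 in the table) went from 6.92 to 9.39 CPM up to 21.4 to 23.2 in EW8, and from 71.1 to 73.1 up to 98.4 to 111 in TC71. Of the endothelial markers, 1 of 5 (CDH5) was in the table, at 0 to 6 counts. The part of these levels in the results was not tested.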

How the data were processed

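Per the labels and the methods of the study, polyA RNA of 12 libraries was prepared with the TruSeq Stranded mRNA protocol, sequenced with paired-end reads, checked with FastQC and mapped to hg38 with STAR. The authors deposited raw counts per gene, not normalized. The counting tool, its strand setting and its annotation are not given in the sources used here. No gene has fewer than 21 counts over all libraries, so low genes had been removed.

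Counts were tested with edgeR 4.0.16 (limma 3.58.1, R 4.3.3): filterByExpr, run on the 4 groups with a minimum of 10 counts and a total of 15, kept 16515 of 20771 genes, with TMM factors, a robust quasi-likelihood fit over all 12 libraries and Benjamini-Hochberg adjustment over all genes tested. Genes rose or fell at an adjusted p below 0.05. Standard errors are the log2 fold change divided by the square root of F. CPM used the TMM library sizes. The lengths of canonical transcripts and the coordinates come from GENCODE release 44, in which 5 members share exon sequence with another gene (REL, RELA, NFKBIZ, TNFAIP3 and BIRC3). Without the strand setting, reads of antisense partners cannot be told apart. The floor was 3 counts per library over a whole group, and ratios have exact 95% intervals for counting error only.

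The members and lists were chosen with earlier results of these data known. Named genes were all members and RRM1; from each list, in each line and direction, the 4 genes (or fewer) that changed most, past the threshold and with a mean of at least 20 counts in the higher group; and the 3 genes nearest in pattern to each member over 2-fold higher in both lines. A part of those so named is printed, and some are not reported here. Alternatives were other scaling factors, DESeq2 1.42.0, other filters, each line alone, a replicate block, a fit that was not robust, an adjusted p below 0.01 and leaving out each library. The scripts were tested on simulated data. Plots were made in Python 3.11.15 (matplotlib 3.10.9).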

Additional observations from a re-analysis of the deposited data

Results flagged for a closer look

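The response of 8 of the 10 genes to 48 h against 0 h differed between the lines by the interaction test of edgeR over all genes (adjusted p below 0.05), in 7 upward and in 1 downward, beside 25.7% and 22.4% of all genes tested. The log2 differences, EW8 minus TC71, were 1.46 for RELB, 1.18 for NFKBIZ, 1.13 for TNFAIP3, 1.11 for NFKB2, 0.68 for REL, 0.27 for RELA, 0.26 for NFKB1 and -0.34 for NFKBIA. RRM1 counts differed upward, by 2.23 (adjusted p = 3.06e-18). The part of the RRM1 difference in the others was not tested. With 3 libraries a group, the search for outlying values, which needs at least 4, was not run.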

How the results depend on the processing

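Of 942 test results under an alternative, 878 kept their direction and their side of the threshold, 33 lost a call, 8 gained one and 23 turned in sign. Of 1048 counts of genes, 991 stayed within 1.5 times. The count of members that rose lay between 6 and 8 in EW8 and was 5 in TC71 under every alternative run, and the counts over 2-fold were 5 in EW8 and 2 to 3 in TC71, where NFKBIZ lies near 2-fold. Members that fell in EW8 numbered 2 in place of 1 with upper-quartile factors and with each line fitted alone, and 1 to 2 with libraries left out. Pathway genes that fell in EW8 numbered 9 in place of 19 with total counts alone. Those that fell in TC71 numbered 3 in place of 5 with total counts alone, DESeq2 or an adjusted p below 0.01, and 3 to 6 with libraries left out (3 without TC71 library 1 or 2 labelled 0 h or 3 labelled 48 h). Within lists, the kinases and partners that fell in EW8 numbered 2 in place of 4 without EW8 library 1 labelled 48 h or with an adjusted p below 0.01, the targets that fell there 2 in place of 4 without library 3 labelled 48 h, and in TC71 the kinases and partners that rose numbered 3 in place of 5 without library 2 labelled 0 h or with an adjusted p below 0.01 and the ligands 1 in place of 2 without library 1 labelled 0 h or 3 labelled 48 h, with DESeq2, with TC71 fitted alone or with an adjusted p below 0.01, and 0 with 10 counts required in every library. In TC71 the receptors that fell numbered 1 in place of 2 without library 1 or 2 labelled 0 h or 3 labelled 48 h, with total counts alone, with DESeq2 or with an adjusted p below 0.01, and the adaptors and the negative regulators that fell 2 in place of 1 without library 1 labelled 48 h (for the adaptors, with upper-quartile factors too). In EW8 with total counts alone, the kinases and partners that fell numbered 2 in place of 4, the negative regulators 0 in place of 4 and the targets 1 in place of 4, and the targets numbered 2 with DESeq2 or an adjusted p below 0.01. With 10 counts required in every library, which tests fewer genes, the targets that rose numbered 6 in place of 12 in each line, and in EW8 the ligands that rose 1 in place of 3 and the receptors 5 in place of 8. At 0 h, members lower in EW8 numbered 4 in place of 2 with total counts alone and 1 to 2 with libraries left out. Members over 2-fold higher in EW8 at 0 h numbered 1 in place of 2 with total counts alone, with upper-quartile factors and with 10 counts required in every library, where BIRC3 was not tested, and 1 to 2 with libraries left out. Total counts alone moved the median of all genes from 0.03 to 0.16 in EW8, from -0.00 to 0.05 in TC71 and from -0.01 to -0.14 between the lines at 0 h.

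The results that turned in sign were far from the threshold in the settings where they turned. RELA in TC71 gave 0.0473 with total counts alone, 0.0037 with DESeq2, 0.0020 with no filter, 0.0058 with 10 counts required in every library and 0.0022 with TC71 fitted alone, and lay between -0.0411 and 0.0413 with libraries left out. The line difference of NFKBIE gave 0.0748 with total counts alone and lay between -0.0897 and 0.0796 with libraries left out, and that of BIRC3 between -0.14 and 0.43. At 0 h, RELA lay between -0.0513 and 0.0286 and NFKBIZ between -0.1362 and 0.0664 with libraries left out. With total counts alone, RELA at 0 h kept its sign and was past the threshold (-0.1477, adjusted p = 0.0101).

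Same-numbered libraries did not deviate together (correlations from -0.1376 to -0.0147), and in neither line did every library correlate best with its own number, so the numbers were not taken as pairs. With the replicate number as a block, 11169 genes passed in EW8 (11329 without) and 6637 in TC71 (6955 without). The block gave 0.0072 for the line difference of NFKBIE and ended the NFKB1 difference (0.26, adjusted p = 0.0574), and it changed no other call of a member. Depth limits BIRC3, NFKBIZ and RELB at 0 h most, and the counting setting that would separate antisense partners was not tested.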
